A study of Mus musculus with 18 samples.

Results

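The 9 genes described here code for the enzymes and carriers of serine: Phgdh, Psat1 and Psph, which make L-serine, Srr, which turns L-serine into D-serine, Shmt1, Shmt2 and Gldc, which turn serine into glycine and break glycine down, and the carriers Slc1a4 and Slc7a10. The members were chosen by function, and all 9 were found among the 23924 genes read and among the 21745 genes tested. RNA was sequenced from astrocytes of the primary motor cortex (M1) of wild-type C57BL/6 mice that, by the study design, were put on restricted water and taught to push a lever on cue for a drop of water. The naive group was untrained (6 libraries, mice of 12 to 21 weeks), the novice group had trained for 3 days (6 libraries, 11 to 13 weeks) and the expert group was fully trained (6 libraries, 13 to 15 weeks). Each group held 2 libraries labelled female and 4 labelled male. Not given in the sources used here were the way the astrocytes were isolated, the days of training of expert mice and whether naive mice were also water restricted. Levels are in FPKM (fragments per kilobase of a transcript, relative to all fragments mapped in that library), a scale per length on which genes can be compared within a library.

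In the brain, L-serine is made mostly by astrocytes, from the glycolysis intermediate 3-phosphoglycerate. Phgdh oxidises it, Psat1 adds an amino group and Psph removes the phosphate. Serine then feeds proteins, phospholipids, sphingolipids, glycine and the folate cycle, and its mirror image D-serine is a co-agonist of the NMDA-type glutamate receptor, a channel on which synaptic plasticity depends. Srr is expressed in neurons, and its presence in astrocytes has been reported as well. Serine made by astrocytes has to cross membranes to reach neurons, and Slc1a4 and Slc7a10 are among the carriers that move it.

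The libraries differed in background signal and in marker levels, both within and between the groups. Olfactory, vomeronasal, trace amine and taste receptor genes should be silent in astrocytes, and the mean level of 1483 such autosomal genes, with 5% trimmed at each end, served as the background of a library. It ranged from 0.0911 to 3.37 FPKM. Below a limit of 2 FPKM lay 10 libraries (4 naive, 2 novice, 4 expert), and above it lay 8 (2 naive, 4 novice, 2 expert). These are called the libraries of lower and of higher background. The background averaged 2.33 ± 0.954 FPKM in novice and 1.83 ± 1.21 FPKM in naive libraries (SD, n = 6 each, exact permutation test, two-sided, p = 0.474), and 1.43 ± 1.07 FPKM in expert libraries, which differed from novice with an exact p of 0.139 (n = 6). The smallest value, 0.0911 FPKM, belonged to the library expert 3, which also listed the most genes at 0 (5430, against 2257 to 4378 in the others). The sum of 20 astrocyte markers was 4592 to 6500 FPKM in the libraries of higher background and 8690 to 20739 FPKM in those of lower background, without overlap, and no astrocyte marker was at 0 in any library. By group the sum had a median of 10172 FPKM in naive, 5469 FPKM in novice and 10412 FPKM in expert libraries. The sum of 17 neuron markers, none of them at 0 in any library, ranged from 192 to 1263 FPKM in naive, from 240 to 1636 FPKM in novice and from 252 to 1495 FPKM in expert libraries. By class it was 192 to 453 FPKM in the libraries of higher background and 458 to 1636 FPKM in those of lower background, also without overlap. The sums of the microglia markers (12 genes) and oligodendrocyte markers (13 genes) reached 116 and 289 FPKM at most, and Tmem119, C1qb, Mag and Opalin were listed at 0 in at least 1 library. The sum of 12 endothelial markers had a median of 269 FPKM in naive, 305 FPKM in novice and 375 FPKM in expert libraries and reached 346, 411 and 715 FPKM in the same order. That of 9 pericyte markers had a median of 193, 187 and 234 FPKM and reached 229, 231 and 426 FPKM. The brain cytoplasmic RNA Bc1 alone made up 18.4% to 59.6% of the summed FPKM in the libraries of lower background. In those of higher background it made up 6.01% to 19.2%. By group its share had a median of 37.0% in naive, 17.1% in novice and 19.1% in expert libraries. As FPKM is relative to the whole library, such a share bears on every level, and its part in the levels of the serine genes was not tested. In novice 1 and novice 3 Xist and the Y-linked transcripts went against the labelled sex.

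The mean level of the serine genes over the 18 libraries ran from 52.6 ± 27.8 FPKM for Slc7a10 to 5.67 ± 2.33 FPKM for Shmt2 (SD, n = 18). Between them, in falling order, stood Psat1 (35.5 FPKM), Phgdh (34.3 FPKM), Gldc (22.2 FPKM), Slc1a4 (19.7 FPKM), Psph (11.8 FPKM), Shmt1 (9.95 FPKM) and Srr (9.74 FPKM). Of the 8 pairs of neighbours in this order, 5 differed within libraries (permutation test on the log2 difference, two-sided, adjusted over the 8 pairs, n = 18). The pairs were set by the means of the same 18 libraries, so the p-values describe the gaps and are no independent test of the order. Slc7a10 was above Psat1 in 15 of 18 libraries (adjusted p = 0.000107) and Phgdh above Gldc in 17 of 18 (adjusted p = 0.000107). Gldc was above Slc1a4 in 14 of 18 libraries (adjusted p = 0.0333), Slc1a4 above Psph in 17 of 18 (adjusted p = 0.000107) and Srr above Shmt2 in 16 of 18 (adjusted p = 0.0002). The 3 others did not pass: Psat1 was above Phgdh in 9 of 18 libraries (adjusted p = 0.757), Psph above Shmt1 in 9 of 18 (adjusted p = 0.493) and Shmt1 above Srr in 8 of 18 (adjusted p = 0.747). The last of these counts was 0 of 10 among the libraries of lower background and 8 of 8 among those of higher background, so the place of Shmt1 in the order turned with the background.

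Against the background of its own library, Slc7a10 stood at least 9.16 times as high and Phgdh at least 6.07 times as high in all 18 libraries. Shmt2 was the one gene of the 9 that lay under it in a library, at 0.537 times the background in naive 5. Psph in naive 5 and Srr in naive 6 were close to it, at 1.05 and 1.08 times. The lowest Shmt2 value corresponds to 1.505 fragments per kb of transcript, by the value of 1 fragment estimated for each library, whereas Slc7a10 rested on 17.3 to 115 fragments per kb in the 17 libraries for which that value could be estimated.

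Promoters were read from RefSeq (GRCm38.p6), which gives 250 bases before and 50 bases after each start. A window was found for each of the 9 genes, with a pair of windows for Psat1. They were searched on both strands for the core of the C/EBP-ATF response element TGATGNAA, through which Atf4 and its partners act, as well as for the CCAAT box, the GC box with the letters GGGCGG, the CRE with the letters TGACGTCA and the TATA box with the letters TATAAA. TGATGNAA was found in 1 of the 10 windows, that of Slc1a4, against 3.969% of 32851 promoters in the table. CCAAT was found in 6 of the 10 windows (Phgdh, Psat1, Psph, Shmt1, Gldc and Slc1a4), against 37.408% of all promoters, and GGGCGG in 7, against 35.658%. TATAAA was found for Phgdh alone, against 13.616% of all promoters, and TGACGTCA in 0 windows, against 1.79%. The TATAAA of Phgdh shares 1 base with its first CCAAT. The windows are shown for the first 2 enzymes of synthesis, for the carrier Slc1a4, which holds the response element core, and for Shmt1, whose level ran against that of the other genes in the libraries of lower background. Capitals mark CCAAT on either strand (ATTGG where it is read on the other one) and, in Slc1a4, also TTGCATCA, the response element core read on the other strand.
Phgdh, chr3:98339920-98340219, minus strand: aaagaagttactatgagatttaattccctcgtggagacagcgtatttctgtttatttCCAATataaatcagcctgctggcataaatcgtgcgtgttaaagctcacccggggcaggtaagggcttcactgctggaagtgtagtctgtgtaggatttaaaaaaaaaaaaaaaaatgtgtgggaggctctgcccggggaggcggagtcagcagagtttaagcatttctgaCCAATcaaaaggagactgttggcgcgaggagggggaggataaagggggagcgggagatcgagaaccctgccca
Psat1, chr19:15925010-15925309, minus strand: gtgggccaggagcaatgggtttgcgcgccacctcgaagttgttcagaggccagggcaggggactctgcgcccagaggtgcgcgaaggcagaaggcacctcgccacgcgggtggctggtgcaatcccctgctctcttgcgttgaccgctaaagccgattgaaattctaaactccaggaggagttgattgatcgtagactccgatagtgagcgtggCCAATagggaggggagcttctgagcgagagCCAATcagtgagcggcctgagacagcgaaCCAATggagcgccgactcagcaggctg
Slc1a4, chr11:20332664-20332963, minus strand: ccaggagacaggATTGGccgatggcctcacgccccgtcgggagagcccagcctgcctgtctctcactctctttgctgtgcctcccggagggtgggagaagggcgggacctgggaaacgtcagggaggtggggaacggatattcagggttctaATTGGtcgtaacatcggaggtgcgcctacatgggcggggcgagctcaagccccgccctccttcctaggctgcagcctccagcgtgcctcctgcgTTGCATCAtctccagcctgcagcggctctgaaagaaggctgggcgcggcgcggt
Shmt1, chr11:60811216-60811515, minus strand: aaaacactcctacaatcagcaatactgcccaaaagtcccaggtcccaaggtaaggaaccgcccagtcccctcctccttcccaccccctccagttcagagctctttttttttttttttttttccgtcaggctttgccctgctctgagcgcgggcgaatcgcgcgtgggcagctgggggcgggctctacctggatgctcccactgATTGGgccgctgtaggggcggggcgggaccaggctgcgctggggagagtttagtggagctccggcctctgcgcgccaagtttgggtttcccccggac
The 3 CCAAT of Psat1 begin 36 and 6 bases before and 23 bases after the start, and the 2 CCAAT of Phgdh begin 193 and 23 bases before it. In Slc1a4 the response element core begins 4 bases before the start. Shmt1 has 1 ATTGG, beginning 47 bases before the start. These are matches of letters, and no binding data were analysed here.

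The 3 enzymes of L-serine synthesis all had lower means in novice libraries than in either other group. Phgdh and Psat1 did so by nearly the same log2 difference, and no difference passed the test. Phgdh, the dehydrogenase that commits 3-phosphoglycerate to serine, had a lowest, median and highest level of 20.4, 37.2 and 57.6 FPKM in naive, of 17.7, 22.8 and 36.5 FPKM in novice and of 28.3, 35.9 and 65.2 FPKM in expert libraries. The groups overlapped, but all 6 novice libraries lay below the naive median and all 6 expert libraries above the novice median. Its means were 24.9 ± 6.48 FPKM in novice, 39.3 ± 13.1 FPKM in expert and 38.5 ± 12.4 FPKM in naive libraries (SD, n = 6 each). On the log2(FPKM + 1) scale Phgdh differed by -0.58 ± 0.25 (SE) in novice against naive and by 0.62 ± 0.25 in expert against novice, with unadjusted p of 0.0323 and 0.0225 by limma. After adjustment over all tested genes the p were 0.89 and 0.449, so neither difference passed. Expert and naive differed by 0.04 ± 0.25.

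Psat1, the aminotransferase of the second step, stood near Phgdh and was far more variable. Its lowest, median and highest levels were 15.5, 37.8 and 77.1 FPKM in naive, 16.8, 21.9 and 37.6 FPKM in novice and 19.2, 37.3 and 70.9 FPKM in expert libraries. The 8 libraries of higher background held Psat1 between 15.5 and 25.4 FPKM and the 10 of lower background between 28.1 and 77.1 FPKM. The classes did not overlap, whereas the training groups did. The sums of the astrocyte and of the neuron markers separated the classes as well. How many of all genes do so was not counted here, so the gap cannot be called particular to Psat1. All 6 novice libraries lay below the naive median. The log2 differences were -0.56 ± 0.37 for novice against naive and 0.61 ± 0.37 for expert against novice (limma adjusted p = 0.89 and 0.455).

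Psph, the phosphatase of the last step, had a lower mean than Phgdh and Psat1. It had a lowest, median and highest level of 3.54, 9.94 and 25.9 FPKM in naive, 4.97, 8.99 and 14.7 FPKM in novice and 6.09, 13.9 and 20.5 FPKM in expert libraries. The naive range enclosed those of both trained groups. Its log2 differences were -0.18 ± 0.37 in novice against naive and 0.47 ± 0.37 in expert against novice (limma adjusted p = 0.921 and 0.53).

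Srr, the racemase that makes D-serine, was among the lower genes of the 9. Srr had a lowest, median and highest level of 3.64, 12.5 and 15.1 FPKM in naive, 6.10, 8.15 and 9.41 FPKM in novice and 6.76, 9.36 and 14.8 FPKM in expert libraries. The 4 naive libraries of lower background lay above every novice library, and the lowest value of all, in naive 6, was also naive. The log2 difference was -0.35 ± 0.28 in novice against naive, -0.08 ± 0.28 in expert against naive and 0.26 ± 0.28 in expert against novice, and the smallest limma adjusted p was 0.628. Over the 10 libraries of lower background Srr had a Pearson's r of -0.01 with the mean of the neuron markers (Spearman's rho -0.07, permutation p = 0.978 and 0.865, adjusted p = 0.978 and 0.898) and of 0.58 with that of the astrocyte markers (rho 0.60, permutation p = 0.0754 and 0.0733, adjusted p = 0.17 and 0.188). Without the 2 libraries farthest from the median marker level the r were 0.06 and 0.62. Over the 8 libraries of higher background the r were 0.36 with the neuron and 0.46 with the astrocyte markers (adjusted permutation p = 0.547 and 0.401). Without the 2 farthest libraries these were 0.07 and 0.39.

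Shmt1 and Shmt2 are the cytosolic and the mitochondrial serine hydroxymethyltransferase, which move a carbon of serine to folate and leave glycine. Shmt1 had a lowest, median and highest level of 4.13, 7.88 and 13.2 FPKM in naive, 5.15, 12.2 and 23.8 FPKM in novice and 1.09, 6.14 and 17.4 FPKM in expert libraries. It was the one gene of the 9 that stood higher in novice than in naive libraries, by 0.62 ± 0.45 on the log2 scale, and expert against novice gave -0.77 ± 0.45 (limma adjusted p = 0.89 and 0.451). The values followed the background class. Shmt1 was at 9.44 to 23.8 FPKM in the 8 libraries of higher background. In the 10 of lower background it was at 1.09 to 9.29 FPKM, without overlap. Genes that separate the classes in this way were not counted over all genes. The higher class held 4 of the 6 novice libraries, against 2 of 6 in each other group. With the background as a covariate the differences of Shmt1 were 0.33 in novice against naive and -0.04 in expert against novice.

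Shmt2 was the lowest of the 9 and showed the smallest novice against naive difference. Its lowest, median and highest levels were 1.80, 6.95 and 11.3 FPKM in naive, 4.19, 4.64 and 8.45 FPKM in novice and 4.01, 4.50 and 6.81 FPKM in expert libraries. Naive libraries held both the lowest and the highest Shmt2 value. Its log2 differences lay between -0.19 and -0.08 in the 3 comparisons, each with a standard error of 0.30 (smallest limma adjusted p = 0.868), and 2 of them turned in sign with the scaling, to 0.017 in novice against naive after quantile normalization and to 0.0026 in expert against novice after trimmed mean of M values scaling. The Shmt1 level divided by the Shmt2 level was 1.41 to 7.31 in the libraries of higher background and 0.161 to 1.76 in those of lower background.

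Gldc is the decarboxylase of the glycine cleavage system, the mitochondrial complex that breaks glycine down and is abundant in astrocytes. Its lowest, median and highest levels were 11.2, 24.7 and 39.9 FPKM in naive, 12.6, 16.4 and 24.0 FPKM in novice and 16.6, 24.2 and 42.4 FPKM in expert libraries. All 6 novice libraries lay below the naive median and all 6 expert libraries above the novice median, with overlap in both comparisons. The background classes did not overlap, at 11.2 to 18.1 FPKM in the libraries of higher background and 19.9 to 42.4 FPKM in those of lower background. As for Psat1, no count over all genes stands beside this. The log2 differences were -0.35 ± 0.30 in novice against naive, 0.17 ± 0.30 in expert against naive and 0.52 ± 0.30 in expert against novice (smallest limma adjusted p = 0.451).

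**Figure D1:**
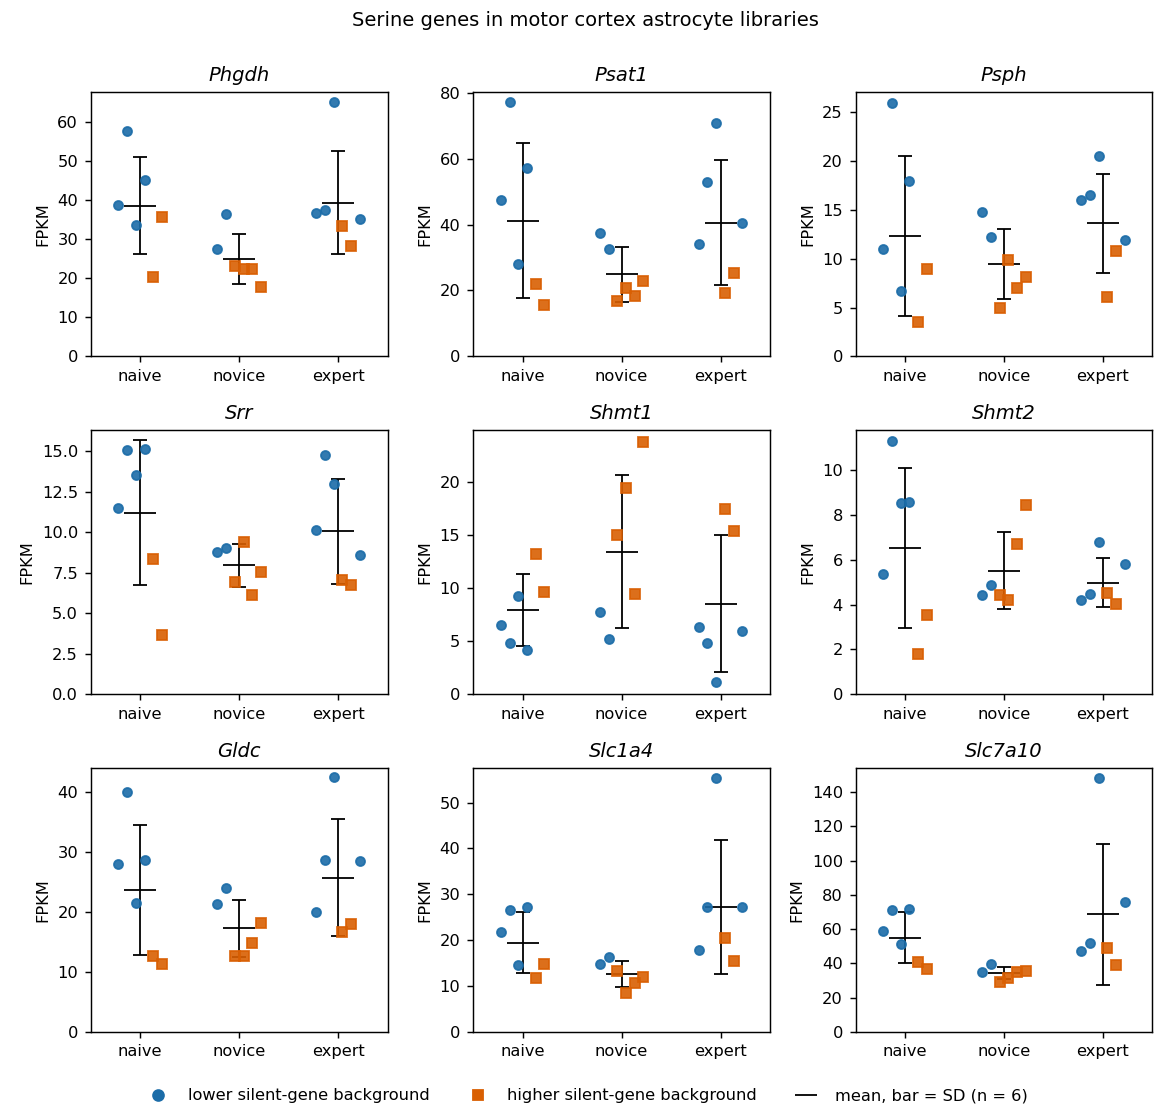
Level of each serine gene in FPKM (linear axis from 0) in naive, novice and expert libraries. Each point is 1 library, blue circles have a lower and orange squares a higher silent-gene background, and the line and bar give the mean ± SD of 6 libraries. The orange squares lie apart from the blue circles for Psat1, Gldc and Shmt1, and how many of all genes show this was not counted. Expert 3 is the highest point for Phgdh, Gldc, Slc1a4 and Slc7a10.

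Both carriers stood higher in expert than in novice libraries, and neither difference passed. With a pseudocount of 1 these were the largest of the 9 genes in that comparison, whereas with one of 0.1 Shmt1 (-0.91) exceeded Slc7a10 (0.85). Slc1a4, a sodium-dependent exchanger of alanine, serine, cysteine and threonine, had a lowest, median and highest level of 11.7, 18.3 and 27.3 FPKM in naive, 8.55, 12.5 and 16.4 FPKM in novice and 15.4, 23.8 and 55.3 FPKM in expert libraries. Of the 6 expert libraries, 5 lay above every novice library, and the sixth, expert 5, lay below the highest novice library. Slc1a4 averaged 27.2 ± 14.6 FPKM in expert and 12.6 ± 2.82 FPKM in novice libraries (SD, n = 6 each), a log2 difference of 0.95 ± 0.28 with a 95% interval of 0.36 to 1.55 (adjusted p = 0.449 by limma, with an unadjusted p of 0.00315). Without expert 3 the expert mean was 21.6 ± 5.43 FPKM (n = 5) and the log2 difference 0.73 (adjusted p = 0.854 by limma). Novice against naive gave -0.55 ± 0.28 and expert against naive 0.41 ± 0.28 (adjusted p = 0.89 and 0.9996 by limma). The endothelial and pericyte marker sums given earlier were also highest in median in expert libraries, and their part in the levels of the carriers was not tested.

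Slc7a10, the sodium-independent carrier of small neutral amino acids that moves D-serine and glycine, was the most abundant of the 9. Its lowest, median and highest levels were 36.6, 55.1 and 71.9 FPKM in naive, 28.8, 34.98 and 39.4 FPKM in novice and 39.1, 50.3 and 148 FPKM in expert libraries. Novice libraries had the narrowest range of the 3 groups. Of the 6 novice libraries, 5 lay below every naive library, and of the 6 expert libraries, 5 lay above every novice library. In each comparison 1 library made the groups overlap.

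Slc7a10 averaged 34.2 ± 3.65 FPKM in novice and 55.0 ± 15.0 FPKM in naive libraries (SD, n = 6 each), a log2 difference of -0.63 ± 0.28 with a 95% interval of -1.22 to -0.05 (adjusted p = 0.89 by limma, with an unadjusted p of 0.0344). Against novice, expert libraries stood higher by 0.83 ± 0.28, with a 95% interval of 0.25 to 1.41 (adjusted p = 0.449 by limma, with an unadjusted p of 0.00749). Without expert 3 this was 0.58 (adjusted p = 0.854 by limma), and the expert mean was 52.6 ± 13.9 FPKM in place of 68.5 ± 40.96 FPKM. The level of Slc7a10 divided by that of Slc1a4 stayed between 1.90 and 3.67 in the 18 libraries.

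Taken over the 9 genes, none passed the threshold of 0.05 in any comparison, and 0 of 21745 genes did (0% of all genes called; smallest limma adjusted p over all genes 0.89 between novice and naive, 0.9996 between expert and naive and 0.449 between expert and novice). With p left unadjusted, 2 of the 9 were under 0.05 in novice against naive (4.60% of all genes), 0 in expert against naive (2.86%) and 3 in expert against novice (10.9%). These were Phgdh and Slc7a10 in the first and Phgdh, Slc1a4 and Slc7a10 in the last, and as both comparisons use the same novice libraries they are not independent. In novice against naive 8 of the 9 log2 differences were below 0, against 43.0% of all genes, and their median was -0.35 against 0.07 for all genes. In expert against naive 3 were below 0 (56.1% of all genes), with a median of 0.05 against -0.05. In expert against novice 2 were below 0 (59.6% of all genes), with a median of 0.52 against -0.14. After quantile normalization these counts below 0 were 7, 2 and 2 in the same order of comparisons, and after trimmed mean of M values scaling 8, 3 and 1. They were 6, 6 and 3 with the background as a covariate and 6, 4 and 5 with the mean of the astrocyte markers as a covariate. Within the libraries of lower background they were 8, 5 and 1, and within those of higher background 3, 0 and 2. For 0 of the 9 genes did the groups not overlap in any comparison, against 0.129%, 0.0782% and 0.432% of all genes in the same order of comparisons. The moderated F test over the 3 groups gave 0 calls among the 9 genes (smallest adjusted p = 0.754). Its unadjusted p was under 0.05 for Phgdh (0.0397), Slc1a4 (0.0112) and Slc7a10 (0.0194) alone of the 9, and for 5.53% of all genes.

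**Figure D2:**
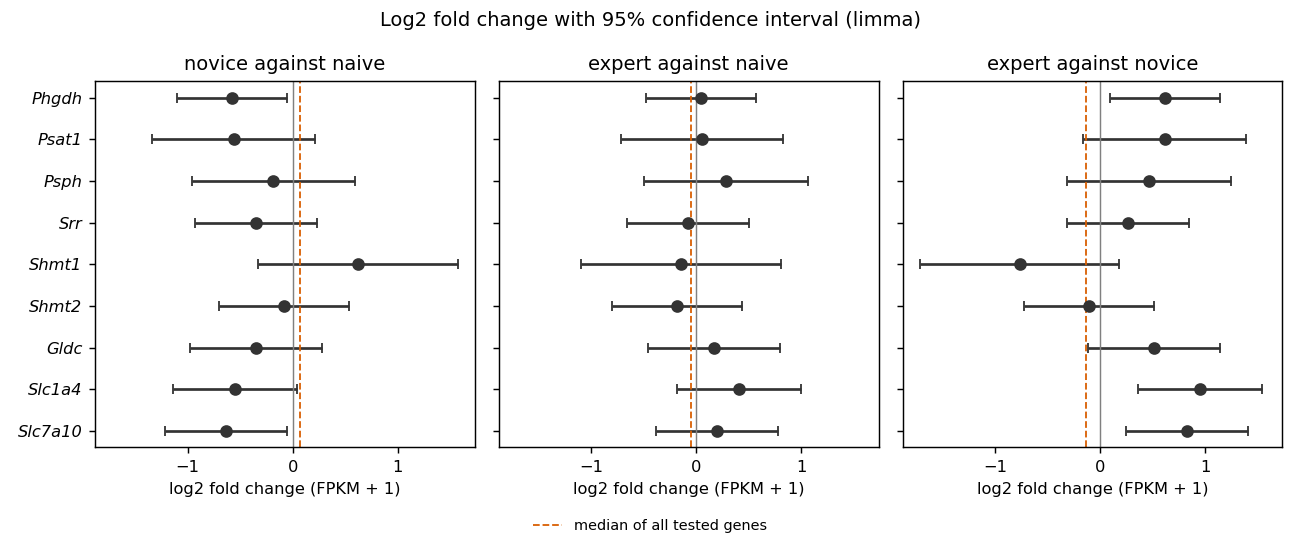
Log2 difference of log2(FPKM + 1) for each serine gene in the 3 comparisons, with its 95% confidence interval from limma. The dashed line is the median of all 21745 tested genes. The intervals of Phgdh, Slc1a4 and Slc7a10 lie above 0 in expert against novice, although no adjusted p passed 0.05.

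Several library measures moved with these differences, and their part in them was not tested apart from the fits that follow. Within the libraries of lower background the expert against novice difference was 0.87 for Slc1a4, 0.94 for Slc7a10 and 0.40 for Phgdh (4 expert and 2 novice libraries). Within those of higher background it was 0.65 for Slc1a4, 0.41 for Slc7a10 and 0.51 for Phgdh (2 expert and 4 novice). With the background as a covariate it was 0.53, 0.42 and 0.30 in the same order of genes, and with the mean of the 20 astrocyte markers as a covariate 0.46, 0.38 and 0.22. For novice against naive the background covariate gave -0.47 for Slc7a10, -0.45 for Phgdh and -0.38 for Slc1a4, and the astrocyte marker covariate -0.31, -0.29 and -0.19. Psat1, Shmt1 and Gldc were at -0.0044, -0.0014 and 0.09 with the astrocyte marker covariate in this comparison. In all of these fits 0 of the 9 genes had a limma adjusted p under 0.05. Fewer cells of a type and less RNA per cell cannot be told apart in such bulk libraries. Novice mice were 11 to 13 weeks old and naive mice 12 to 21 weeks, and with age as a covariate the novice against naive differences were -0.53 for Slc7a10, -0.38 for Phgdh and -0.43 for Slc1a4. Without novice 1 and novice 3, whose sex-linked transcripts went against their labels, they were -0.59, -0.60 and -0.63.

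The 9 genes did not vary together in 1 block. Among the libraries of lower background Phgdh, Psat1, Gldc, Slc1a4 and Slc7a10 went with the astrocyte markers and Shmt1 went against them, whereas the relations of Srr, Shmt2 and Psph did not pass. Because the 2 background classes stood apart, relations were taken within each class, for 3 library measures and 9 genes, 54 relations in all, with p-values adjusted over them. By Pearson's r 12 of these passed, all among the 10 libraries of lower background, and 19 had an unadjusted p under 0.05. By Spearman's rho the relations of Phgdh, Slc1a4 and Slc7a10 with the background did not pass. Nor did that of Slc7a10 with the neuron markers. The share of all genes with such relations was not computed, so they cannot be called particular to the 9 genes.

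With the mean log2 level of the astrocyte markers, Pearson's r over the 10 libraries of lower background was 0.95 for Phgdh (rho 0.94, permutation p = 1e-05 and 0.00015, adjusted p = 0.00054 and 0.00405). It was 0.95 for Slc1a4 (rho 0.85, adjusted permutation p = 0.0018 and 0.0267), 0.94 for Gldc (rho 0.95, adjusted permutation p = 0.0018 and 0.00378) and 0.89 for Psat1 (rho 0.90, adjusted permutation p = 0.00292 and 0.0122). It was 0.89 for Slc7a10 (rho 0.81, adjusted permutation p = 0.00909 and 0.0463) and -0.91 for Shmt1 (rho -0.87, adjusted permutation p = 0.00292 and 0.0232). Leaving out the 2 libraries farthest from the median marker level, expert 3 and naive 2, left r at 0.85 for Phgdh, 0.91 for Slc1a4, 0.86 for Gldc, 0.87 for Psat1, 0.70 for Slc7a10 and -0.84 for Shmt1. Among the 8 libraries of higher background 0 of these relations passed, with r between -0.09 for Shmt2 and 0.78 for Psat1, and 0.52 for Shmt1.

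With the logarithm of the background, r over the 10 libraries of lower background was 0.94 for Shmt1 (rho 0.83, adjusted permutation p = 0.0128 and 0.0352), -0.88 for Slc1a4 (rho -0.71, adjusted permutation p = 0.0128 and 0.126) and -0.83 for Slc7a10 (rho -0.64, adjusted permutation p = 0.0496 and 0.167). It was -0.76 for Gldc (rho -0.89, adjusted permutation p = 0.0111 and 0.0174) and -0.75 for Phgdh (rho -0.58, adjusted permutation p = 0.0413 and 0.197). Leaving out the 2 farthest libraries, expert 3 and expert 1, left r at 0.76 for Shmt1, -0.71 for Slc1a4, -0.62 for Gldc, -0.56 for Phgdh and -0.43 for Slc7a10, so the last rests largely on those libraries. In the 8 libraries of higher background Shmt1 had the other sign (r = -0.68, permutation p = 0.0694). With the neuron markers 1 relation passed by Pearson's r, that of Slc7a10 in the libraries of lower background (r = -0.80, rho -0.71, adjusted permutation p = 0.0389 and 0.126, r = -0.79 without the 2 farthest libraries).

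**Figure D3:**
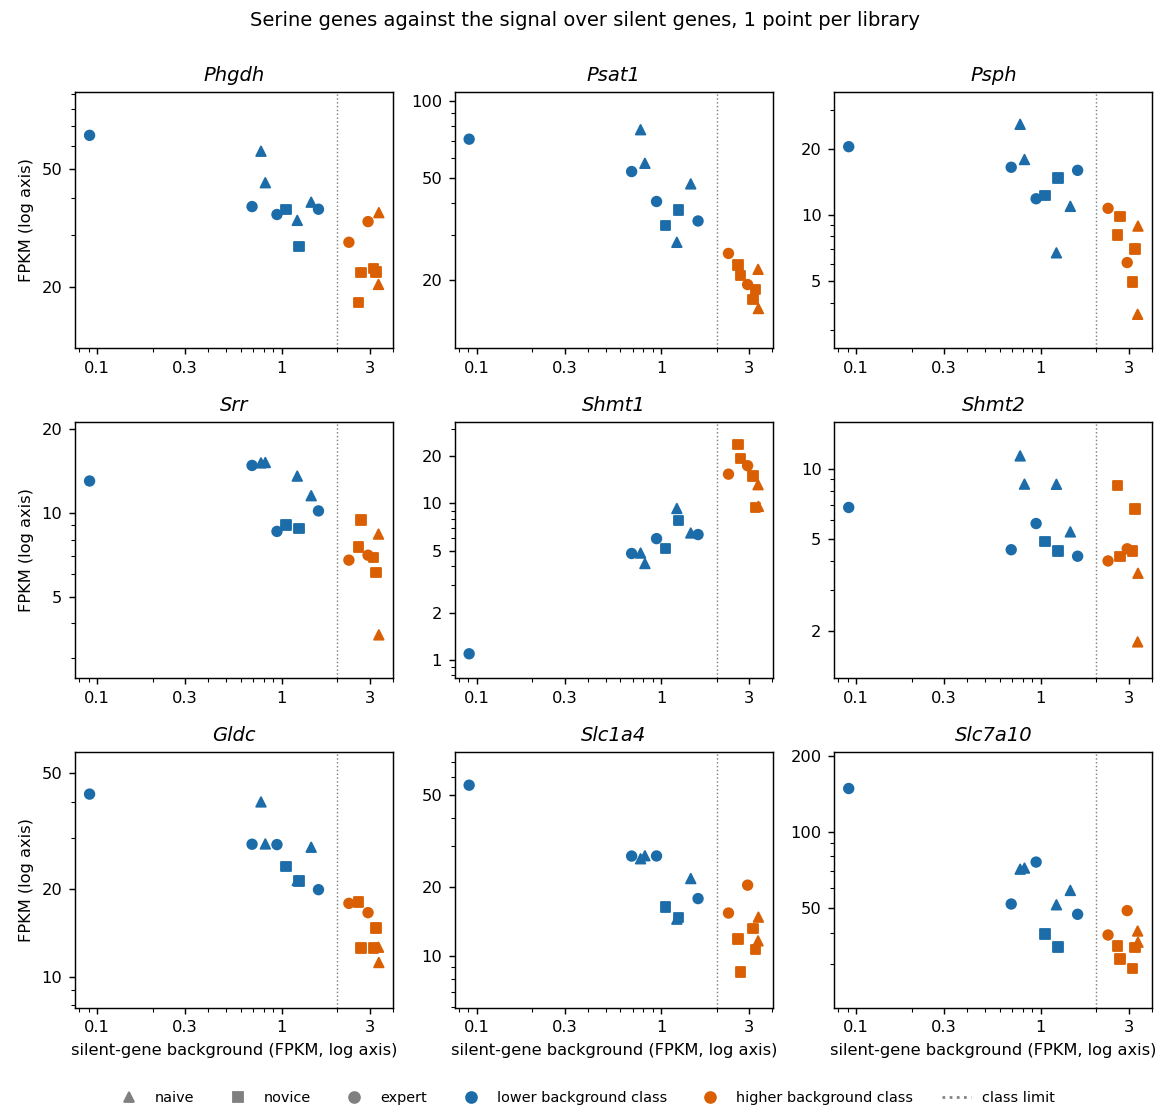
Level of each serine gene against the silent-gene background of the library, both in FPKM on log axes. Triangles are naive, squares novice and circles expert libraries, blue is the lower and orange the higher background class, and the dotted line is the class limit of 2 FPKM. Shmt1 is high where the background is high, and expert 3 lies far to the left at 0.0911 FPKM.

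Between the genes themselves, Psat1 and Gldc had the highest Pearson's r of log2(FPKM + 1) over all 18 libraries, 0.96. Their r was 0.92 over the 10 libraries of lower background and 0.68 over the 8 of higher background. These correlations are descriptions over libraries that share depth and background, without a test. The carriers Slc1a4 and Slc7a10 were closer than that pair within both classes, with r of 0.93 in the lower and 0.69 in the higher class. Without expert 3 the carriers had 0.82 in the lower class, where Psat1 and Gldc had 0.90. The enzymes of the first and second step, Phgdh and Psat1, had 0.83 in the lower and -0.43 in the higher class. Of the 36 pairs, 10 had an r over 0.7 in the lower class and 1, Phgdh with Slc1a4, in the higher class. Shmt1 had a negative r with each of the other 8 genes in the lower class, from -0.17 with Shmt2 to -0.91 with Slc1a4, and with Slc7a10 it was -0.82, or -0.44 without expert 3. In the higher class its r with Phgdh was -0.41, while those with Srr (0.68), Psat1 (0.57), Gldc (0.52), Shmt2 (0.31) and Psph (0.15) were positive and those with Slc1a4 (-0.053) and Slc7a10 (0.00039) were close to 0.

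**Figure D4:**
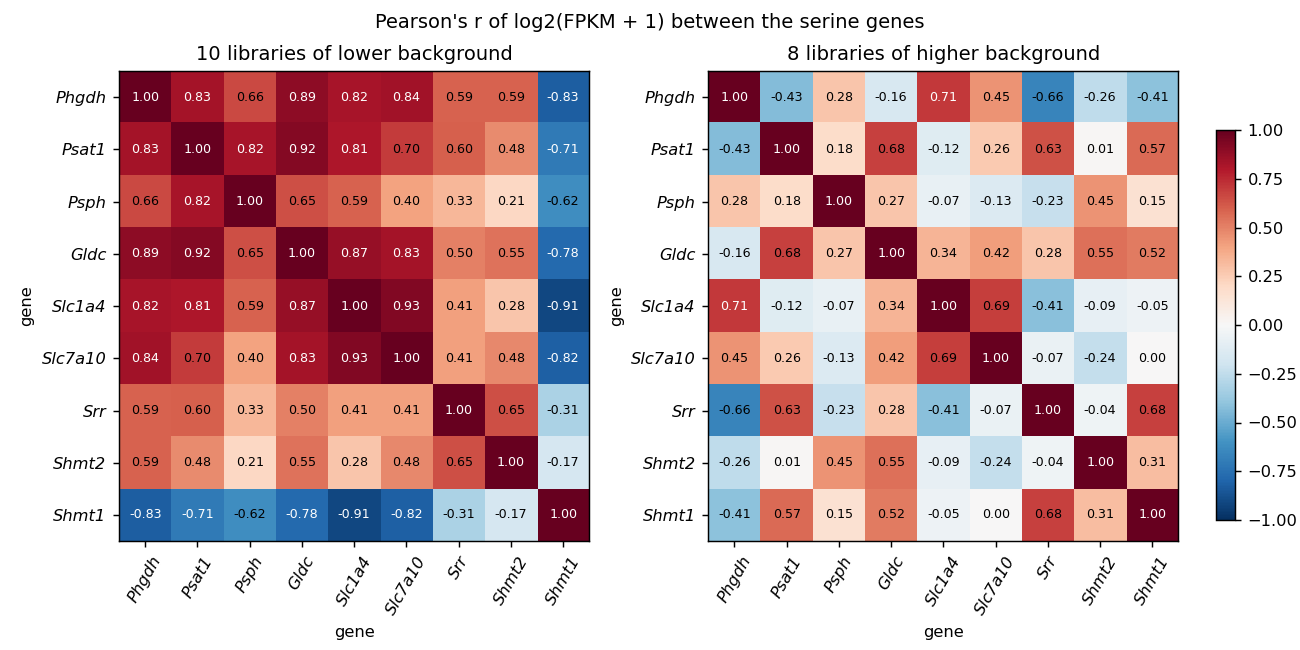
Pearson's r of log2(FPKM + 1) between the serine genes over the 10 libraries of lower background and the 8 libraries of higher background. Red is positive and blue negative. Shmt1 is negative with all other genes on the left, and the block of positive values on the left is not seen on the right.

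The genes most like each member in their pattern over the 18 libraries were found by Pearson's r of log2(FPKM + 1) among all tested genes. They are given as a description, with values within classes beside some of them. For Phgdh they were Nr1d1, a nuclear receptor of the circadian clock (r = 0.94, with 0.94 in the lower and 0.83 in the higher class), Gramd3 (0.92), Timp4, an inhibitor of metalloproteinases (0.92), Sox9, a transcription factor of astrocytes (0.92) and Fgfrl1 (0.92). For Psat1 they were Csrp1 (0.98) and Glul, the glutamine synthetase of astrocytes (0.97, with 0.93 and 0.94 in the lower and higher class). Gldc went with Ptprz1 (0.97) and Clu (0.97), Slc1a4 with Rasa3 (0.96) and Macf1 (0.95), and Slc7a10 with Vegfa (0.95) and AI464131 (0.95). The values for Psph were 0.91 with Capn2 and 0.90 with Cox5a, and those for Srr 0.93 with Ndufa2, a subunit of complex I, and 0.92 with Eprs, an aminoacyl-tRNA synthetase. Those of Srr were 0.74 and 0.67 in the lower and 0.90 and 0.90 in the higher class. Shmt1 had 0.93 with Scd3 and 0.93 with Gga2, which were 0.925 and 0.925 within the lower and 0.37 and 0.20 within the higher class. Shmt2 had the loosest partners, at 0.80 with Fkbp4 and 0.79 with Fam58b. These were 0.68 and 0.56 in the lower and 0.86 and 0.89 in the higher class.

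In 7 lists of genes around the serine pathway, no gene passed in any comparison. Of 12 glycolysis enzymes, of which all but Pgam1 lie on the way to 3-phosphoglycerate and Pgam1 uses it, 11 (Pgam1 among them) stood lower in novice than in naive libraries (median log2 difference -0.42) and 11, again with Pgam1, higher in expert than in novice (0.43), while 6 stood lower in expert than in naive (0.02). The medians of all genes were 0.07, -0.14 and -0.05 in the same order, and the first and second of these comparisons share the novice libraries. Pfkm and Pfkp, phosphofructokinases of the committed step of glycolysis, had differences of -0.86 ± 0.36 and -0.62 ± 0.24 in novice against naive (limma adjusted p = 0.89 each). In expert against novice they had 0.95 ± 0.36 and 0.54 ± 0.24 (limma adjusted p = 0.449 each). The phosphofructokinase Pfkl had smaller differences, -0.08 ± 0.18 and 0.28 ± 0.18 in the same order of comparisons (limma adjusted p = 0.928 and 0.463). Hk1, the first enzyme, had 0.17 ± 0.36 in expert against naive.

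Of the 11 other carriers of serine and neutral amino acids, 7 stood lower in novice than in naive, 9 higher in expert than in naive and 7 higher in expert than in novice libraries (median log2 differences -0.08, 0.23 and 0.28). Slc3a2, the heavy chain that several such carriers share, differed by 0.74 ± 0.25 and Slc38a3, a glutamine carrier of astrocytes, by 0.83 ± 0.31 in expert against novice (limma adjusted p = 0.449 each). Slc1a5, the close relative of Slc1a4, stood higher in novice than in naive libraries, by 0.76 ± 0.32 (limma adjusted p = 0.89), with means of 2.61 ± 1.46 FPKM in novice and 1.19 ± 1.04 FPKM in naive libraries (SD, n = 6 each). These are near the silent-gene background of 2.33 FPKM in novice and 1.83 FPKM in naive libraries.

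Among the 10 partners of glycine cleavage and glycine carriers, 7 stood lower in novice than in naive and 7 higher in expert than in novice libraries (medians -0.15 and 0.15), and 5 stood higher in expert than in naive (median 0.00). Slc25a38, the mitochondrial glycine carrier, had -0.51 ± 0.21 in novice against naive, and Gatm, which uses glycine to make the precursor of creatine, had 0.64 ± 0.25 in expert against novice (limma adjusted p = 0.89 and 0.449). The 21 folate enzymes and carriers were split, with 10 lower in novice than in naive, 13 lower in expert than in naive and 13 lower in expert than in novice libraries (medians 0.01, -0.07 and -0.16). Ftcd, a folate enzyme of histidine breakdown, had the smallest p of that list, at -1.04 ± 0.36 in expert against novice (limma adjusted p = 0.449).

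Among 19 genes around the use and breakdown of serine, mostly enzymes and also Serinc proteins and the D-aspartate oxidase Ddo, 8 stood lower in each of the 3 comparisons, with medians of 0.06, 0.14 and 0.29. Ptdss2, which makes phosphatidylserine, had the smallest p of these lists in novice against naive, at -0.87 ± 0.27 (adjusted p = 0.89 by limma, with an unadjusted p of 0.00399). The 17 genes of the amino acid response had 7 members lower in novice than in naive, 8 in expert than in naive and 9 in expert than in novice libraries, with medians of 0.11, 0.04 and -0.06. Atf4, the transcription factor at the centre of that response and a known activator of Phgdh, Psat1 and Psph, had -0.12 ± 0.28, 0.26 ± 0.28 and 0.38 ± 0.28 in the same order (limma adjusted p = 0.933, 0.9996 and 0.51). Of 13 NMDA receptor subunits and partners of the racemase, 4, 7 and 8 stood lower, with medians of 0.12, -0.01 and -0.17. The smallest p of this list in novice against naive and in expert against novice was that of Fbxo22. Its differences there were -0.55 ± 0.19 and 0.54 ± 0.19 (limma adjusted p = 0.89 and 0.449). Grin2c, a subunit found in astrocytes, had 0.82 ± 0.30 and Grin2a, a subunit of mature neurons, -0.50 ± 0.23 in expert against novice (limma adjusted p = 0.449 each).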

How the data were processed

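Per the labels' protocols, RNA was released with proteinase K, cleaned on a silica column and made into stranded total RNA libraries (SMARTer kit), which an Illumina HiSeq instrument sequenced. The authors deposited 1 table of FPKM per gene and library, and per the submitters' processing notes TopHat, Cufflinks and mouse build mm9 were used. Not given in the sources used here were versions, options, annotation and any further scaling. Read totals are not part of the table, so depth was read from its steps. Among 126 olfactory receptor genes with a single transcript, 65.3% to 77.8% of the low values were within 0.1 of a whole multiple of 1 fragment in 17 libraries, in which 1 fragment on 1 kb was worth 0.604 to 1.87 FPKM. Expert 3 showed no such step (23.5%).

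Of 23951 entries, 27 with names turned into dates were dropped. Genes that reached 1 FPKM in 6 or more libraries were fitted as log2(FPKM + 1) with limma 3.58.1 in R 4.3.3 (1 mean per group, eBayes with trend, two-sided, Benjamini-Hochberg adjusted over all 21745 genes, threshold 0.05). A fold change on this scale understates that of low genes. The fit was tested on simulated data. Single values were compared by permutation (all splits enumerated, or 100000 draws, which give 4e-05 as the smallest p in the order of levels). Named genes are the 9 members, up to 3 genes with the smallest p from each related list and comparison together with Atf4, singled out by its role after its values were seen, 5 genes most like Phgdh and 2 most like each other member. Members and lists were chosen with earlier results of these data known, and the background measure was set after its values were seen. The labels do not say that each library is a separate animal, so p-values measure the spread between libraries. Replicate numbers recur in each group but do not pair the libraries.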

Additional observations from a re-analysis of the deposited data

Results flagged for a closer look

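The library expert 3 was the highest of the 6 expert libraries, by a gap that took up most of the range of its group, for 3 of the 9 genes. Phgdh stood at 65.2 FPKM in expert 3, and the gap to the next library was 0.754 of the range. Slc1a4 stood at 55.3 FPKM there (0.703 of the range) and Slc7a10 at 148 FPKM (0.663 of the range), against a limit of 0.625 for 6 samples. In all 27 sets of 6 values were examined, and chance alone passes this limit in about 1 of 20 sets. Expert 3 also had the lowest Shmt1 value, 1.09 FPKM, the lowest background, 0.0911 FPKM, and the most genes at 0, 5430. The part of these in its high levels was not tested.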

How the results depend on the processing

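No member and no other gene had an adjusted p under 0.05 in any of the 14 alternative fits or of the 18 fits that left out 1 library, and 805 of 864 differences of single members kept their sign. The smallest adjusted p of a member was 0.59 between novice and naive, 0.781 between expert and naive and 0.235 between expert and novice. Precision is limited by the spread between libraries, with a median residual SD of 0.52 (log2) for the 9 genes. For Psph, Srr, Shmt1 and Shmt2 it is also limited by few fragments. The median of all genes in expert against novice was -0.14, against 0.04 after quantile normalization. The cause of the changes that follow was not tested. The median of the 9 genes in novice against naive, -0.35, was 0.25 within the libraries of higher background, and that of expert against novice, 0.52, was -0.08 with the astrocyte marker covariate, which was added after the data were seen.

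Signs turned as follows. With trimmed mean of M values scaling, Shmt2 was at 0.0026 in expert against novice. With quantile normalization, Shmt2 was at 0.017 in novice against naive and Shmt1 at 0.020 in expert against naive. With the background as a covariate, novice against naive gave 0.00048 for Psph and 0.024 for Shmt2, expert against naive gave -0.15 for Phgdh, -0.27 for Psat1, 0.29 for Shmt1, -0.092 for Gldc and -0.045 for Slc7a10, and expert against novice gave -0.050 for Srr. With age as a covariate, novice against naive gave 0.088 for Psph and 0.10 for Shmt2. Within the libraries of lower background, expert against naive gave -0.025 for Phgdh and -0.045 for Psat1, and expert against novice 0.15 for Shmt2. Within those of higher background, novice against naive gave 0.081 for Psat1, 0.31 for Psph, 0.35 for Srr, 0.92 for Shmt2 and 0.25 for Gldc, expert against naive 0.26 for Srr, 0.51 for Shmt1 and 0.56 for Shmt2, and expert against novice -0.089 for Srr and 0.030 for Shmt1. Without novice 1 and novice 3, Shmt2 was at 0.032 in novice against naive.

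With the astrocyte marker covariate, novice against naive gave 0.29 for Psph, -0.0014 for Shmt1, 0.18 for Shmt2 and 0.087 for Gldc, expert against naive -0.066 for Phgdh, -0.16 for Psat1 and 0.087 for Shmt1, and expert against novice -0.15 for Psat1, -0.19 for Psph, -0.20 for Srr, 0.088 for Shmt1 and -0.082 for Gldc.

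Leaving out 1 library at a time turned the sign in these cases. In expert against naive, Gldc ran from -0.0079 (without naive 6) to 0.34, Phgdh from -0.12 (without naive 5) to 0.17, Psat1 from -0.18 (without naive 6) to 0.27, Shmt1 from -0.40 (without expert 4) to 0.22, Slc7a10 from -0.055 (without expert 3) to 0.32 and Srr from -0.34 (without naive 6) to 0.023. In novice against naive, Psph ran from -0.45 (without naive 5) to 0.066 and Shmt2 from -0.33 (without naive 5) to 0.095. In expert against novice, Shmt2 ran from -0.19 (without expert 3) to 0.0086.

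With the replicate number as a block, 0 members were called and Slc1a4 in expert against novice had a limma adjusted p of 0.366. Same-numbered libraries did not pair: of 18 same-number pairs 10 had a correlation over 0.1, from -0.36 to 0.46, and 1 of 18 libraries went best with its own number.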
